A study of Mus musculus with 12 samples.

Results

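The 8 malignant lymphomas of a 12-tumour series were compared by treatment: 5 from mice given ferric nitrilotriacetate (Fe-NTA) and 3 that arose in untreated mice. They were taken by their tissue and treatment labels, with no measured value in the choice, and the 4 renal cell carcinomas of the series were set aside because none came from an untreated mouse. Fe-NTA is an iron chelate that was injected into the abdomen 5 times a week for 12 weeks, at 3 mg iron per kg of body weight in week 1 and at 5 mg in the 11 weeks after. Per the labels, each treated group began with 20 male mice, and mice were killed at about 120 weeks. The treated lymphomas were KO1077 and KO1111 from Mutyh knockout mice and WT1113, WT1114 and WT1121 from wild-type mice. The untreated ones were KO1414, a knockout, and WT1405 and WT1420, wild types. All mice were C57BL/6, and each tumour is named by genotype and animal number. Tumour DNA was labelled with Cy5 and hybridised, 1 array a tumour, against Cy3-labelled DNA of normal C57BL/6 kidney, so that a log2 ratio above 0 means more copies in the tumour.

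Iron held by nitrilotriacetate stays soluble and drives Fenton chemistry, which makes hydroxyl radicals and oxidised bases such as 8-oxoguanine. Mutyh is the glycosylase that removes adenine paired with 8-oxoguanine. Fe-NTA is best known for carcinoma of the renal proximal tubule in rodents, whereas lymphoma is a common spontaneous tumour of aged C57BL/6 mice, and mouse lymphomas often carry extra copies of whole chromosomes.

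Each array read 161460 autosomal probes in build mm9, and 99.9% of them lay well above background on each lymphoma's array. The spread between neighbouring probes, Agilent's derivative log ratio SD, was 0.12 to 0.17. The arrays lay on slides in a pattern that overlaps treatment: slide 2 held KO1077, KO1111, WT1113 and WT1114, all treated, and slide 3 held the treated WT1121 with the 3 untreated lymphomas. The Mutyh probe at chr4:116490496-116490555 read -2.44, -2.39 and -2.56 in KO1077, KO1111 and KO1414, and between -0.11 and 0.14 in the 5 wild types, so the genotype labels held in all 8 lymphomas. As a check of the lymphoid label, the antigen receptor loci, which lymphocytes cut during their development, carried a short loss at 2 to 4 of 6 loci in 7 lymphomas and at 0 in WT1405. Some of these loci lie on chromosome 6, which was gained in WT1405, and a loss in gained sequence is called less readily. Igh and Tcra/Tcrd, on chromosomes not gained in WT1405, read -0.05 and -0.07 relative to their chromosome. Relative to its chromosome each of the 6 loci read -0.09 to -0.02 in WT1405. The check thus did not bear out the lymphoid label in this tumour.

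Among the treated tumours, WT1113 and WT1114 stood apart from the rest as a pair. Across means over 1 Mb of the autosomes their log2 ratios correlated at r = 0.75 (2378 bins), against -0.12 to 0.44 for the other 27 pairs of lymphomas. Without chromosomes 1, 7 and 15 it was 0.85, against -0.12 to 0.51. These bins share slide, reference and base composition, so the values are a description. The pair also lacked a gain at chr14:69824947-70160962, from Slc25a37 to Loxl2: it read 0.05 and 0.02 above chromosome 14 in WT1113 and WT1114, and between 0.44 and 0.63 in the other 6. The tests of altered amounts, chromosomes, receptor loci and genes below were therefore also computed with the pair averaged as 1 sample and with both left out.

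The amount of altered DNA did not separate treated from untreated lymphomas. A segment was called gained or lost where its mean lay at least 0.25 from 0 over at least 5 probes. Sequence in segments longer than 10 Mb with means from 0.10 to 0.25 was counted as shallow. The antigen receptor loci, the stretch around Mutyh and the chromosome 14 interval from Slc25a37 to Loxl2 were masked and left out of these calls. Losses at the receptor loci are described on their own below. Gained segments covered 0% of the autosomes in KO1077, 0.607% in KO1111, 8.49% in WT1113, 8.60% in WT1114 and 3.94% in WT1121. Among the untreated tumours they covered 1.33% in KO1414, 19.01% in WT1405 and 0% in WT1420. Both groups thus held a tumour with nothing gained, and the most altered genome of all was the untreated WT1405. The mean was 4.33 ± 4.13% (SD, n = 5) with Fe-NTA and 6.78 ± 10.6% (n = 3) without, which gave a difference of -2.45 percentage points (exact two-sided permutation p = 0.732, and 1 after adjustment over 5 such measures). These 56 assignments cannot give a p below 0.0179, so a single measure could not pass after adjustment. Called loss outside the masked regions occurred only in the treated WT1113, over 0.574% of the autosomes, with an exact permutation p of 1.

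**Figure D1:**
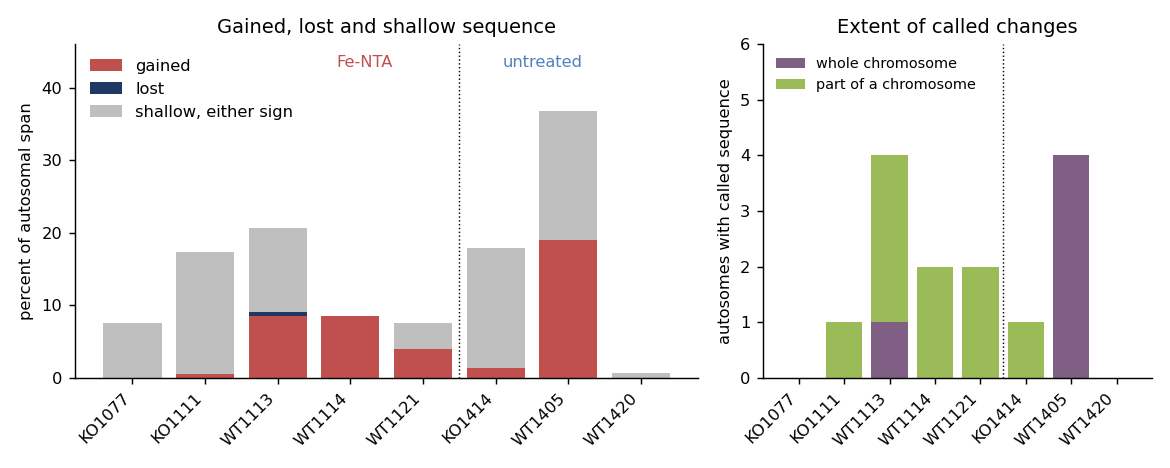
The left panel shows, for each lymphoma, the percent of the autosomal span in gained, lost and shallow segments; the right panel shows how many autosomes carried called sequence over the whole chromosome (at least 90%) or part of it. WT1405 reached 19.01% gained, in whole chromosomes, and the treated tumours reached at most 8.60%, mostly in parts of chromosomes.

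The sign of that difference rested on WT1405. Without it, treated exceeded untreated lymphomas by 3.66 percentage points (exact permutation p = 0.381), and with arrays centred on the median in place of the mode its gained share dropped to 6.08% and the difference became 1.26 points (exact permutation p = 0.625).

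Shallow changes covered, on average, more of the autosomes than called ones in both groups. They covered 7.53%, 16.8%, 11.6%, 0% and 3.66% of the autosomes in KO1077, KO1111, WT1113, WT1114 and WT1121, and 16.6%, 17.8% and 0.615% in KO1414, WT1405 and WT1420. The 2 groups overlapped over nearly their whole range. Means were 7.92 ± 6.58% (n = 5) and 11.7 ± 9.59% (n = 3), a difference of -3.75 points with an exact permutation p of 0.536. It was -10.7 points with median centring (exact permutation p = 0.196), -8.01 within slide 3, -1.99 with normexp background correction and -2.34 without WT1113 and WT1114. Outside the masked regions KO1077 had no called segment and was altered only at this level, and with median centring its shallow share was 2.60%.

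Called changes took up parts of chromosomes in 4 treated tumours, and whole chromosomes mainly in 1 untreated tumour. Called changes over at least 90% of an autosome numbered 1 in the 5 treated lymphomas, chromosome 15 of WT1113, and 4 in the untreated ones, all in WT1405. Called changes of part of an autosome numbered 8 with treatment, in KO1111, WT1113, WT1114 and WT1121, and 1 without, in KO1414. With shallow sequence included, from 0.10 upward, whole and part changes numbered 7 and 14 in treated lymphomas and 10 and 4 in untreated ones. Of these 10, WT1405 held 7 and KO1414 held 3. Autosomes of 1 tumour are not separate samples, so these totals carry no test.

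Counted by length, called segments over 10 Mb numbered 0, 1, 5, 2 and 2 in KO1077, KO1111, WT1113, WT1114 and WT1121, and 1, 4 and 0 in KO1414, WT1405 and WT1420. The means, 2.00 ± 1.87 (n = 5) and 1.67 ± 2.08 (n = 3), gave a difference of 0.333 (exact permutation p = 0.839). Focal segments, of at most 10 Mb, were found outside the masked regions in the treated KO1111, with 1, and WT1113, with 3. No untreated lymphoma had one there. Those of WT1113 all lay on chromosome 1, at 0.26 to 0.33, where gain from 0.10 upward covered 92.0% of the chromosome. The difference of 0.8 focal segments a tumour had an exact permutation p of 0.732. With a segmentation penalty factor of 20 in place of 10, WT1113 had 0 and the difference was 0.2. With masked regions counted, focal segments numbered 8, 6, 5, 3 and 4 with treatment and 8, 1 and 4 without. WT1113 was divided into 164 segments against 27 to 108 in the other 7 lymphomas, and the part of this in its focal count was not tested. Without both WT1113 and WT1114 the difference in large segments was -0.667 and that in focal segments 0.333.

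No chromosome passed the test between treated and untreated lymphomas. A single chromosome could not have passed after adjustment over 19, since 56 assignments give no p below 0.0179. Of 19 autosomes, the mean log2 ratio was higher with treatment on 12 and lower on 7, with 0 at an unadjusted exact permutation p under 0.05 and adjusted p-values from 0.746 to 0.946. On no autosome did all treated tumours lie above or below all untreated ones. The level of an ordinary chromosome differed between the slides, which overlap with treatment. The median of a tumour's 19 chromosome means was 0.04, 0.04, 0.02 and 0.06 in the 4 treated tumours of slide 2. It was 0.00 in the treated WT1121 of slide 3, and -0.03, 0.00 and 0.00 in the untreated tumours beside it. The part of this level in the 12 higher chromosomes was not tested. The lowest p was on chromosome 9, with 0.04, 0.04, 0.04 and 0.06 on slide 2 and -0.01 in WT1121, against -0.02, -0.01 and -0.01 untreated (exact permutation p = 0.0893), and there WT1121 exceeded the untreated mean by 0.00.

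**Figure D2:**
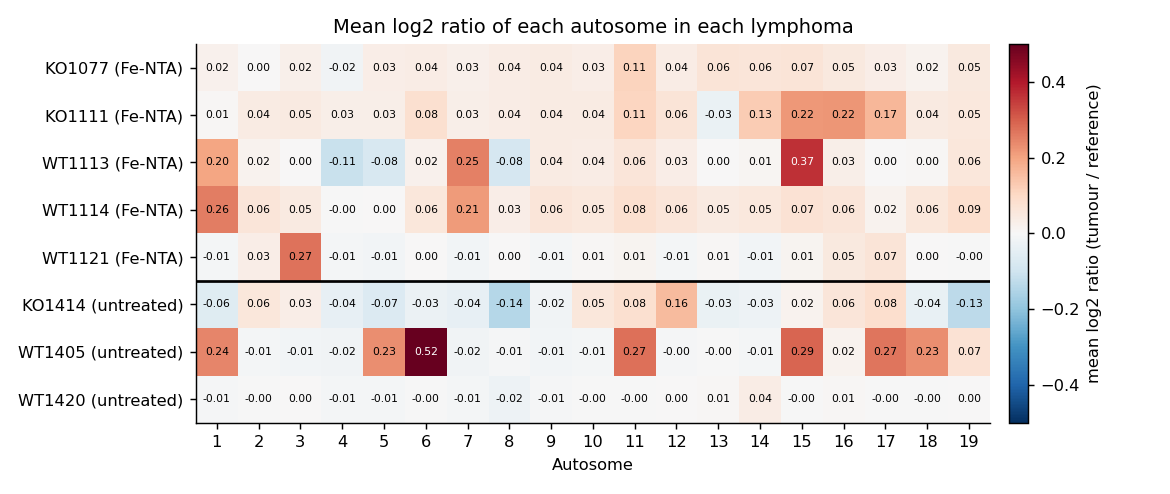
Mean log2 ratio (tumour over normal kidney) of each autosome, columns, in each lymphoma, rows, with treated tumours above the line and untreated ones below it. Chromosomes 1, 11 and 15 were raised on both sides of the line, chromosome 7 in WT1113 and WT1114 alone, and chromosome 6 most in WT1405, at 0.52.

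Gains of chromosomes 11, 1 and 15 and shallow loss of chromosome 8 occurred in both treated and untreated lymphomas. Counting stretches over 10 Mb with means at least 0.10 from 0, chromosome 11 was gained in 4 lymphomas, the treated KO1077 and KO1111 and the untreated KO1414 and WT1405. In KO1077 its mean of 0.11 lay just above the 0.10 limit, on an array whose median chromosome mean was 0.04. With median centring the shallow share of KO1077 fell from 7.53% to 2.60%. Chromosome 1 was gained in 3 (WT1113, WT1114 and the untreated WT1405) and chromosome 15 in 3 (KO1111, WT1113 and the untreated WT1405). Chromosome 8 was shallowly lost in 3, over its full length in the untreated KO1414 at -0.14 and over parts in the treated WT1113 and the untreated WT1420. Changes seen in at least 2 treated tumours and in 0 untreated ones were gain on chromosome 7 (WT1113 and WT1114), gain on chromosome 14 (KO1077 and KO1111, in parts that did not overlap) and loss on chromosome 4 (KO1077 and WT1113). No test was made of these counts, and with 3 untreated tumours an absence among them says little.

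The gain of chromosome 7 was nearly the same interval in both tumours that had it. Called sequence ran over chr7:58075000-133995167 in WT1113 and chr7:58050012-133995167 in WT1114, starting inside Nell1, which encodes a secreted protein of bone formation, and ending at a probe of Doc2a, a calcium sensor of synaptic vesicles. Its mean was 0.42 over 5535 probes in WT1113 and 0.34 over 5536 in WT1114. Over the 50 probes just inside the left boundary the mean was 0.36 and 0.32 in the pair, and between -0.01 and 0.09 in the other 6. Over the 50 just inside the right boundary it was 0.54 and 0.40, against -0.04 to 0.04. The ratio stepped down within 1 probe on the right, from 0.67 to 0.20 in WT1113 and from 0.53 to 0.15 in WT1114. The 4 probes on either side of the ends called in WT1113 are shown as the array holds them, since the right end is shared and the left end of WT1114 lies 2 probes further out. The files give mm9 positions and no strand, and no base is singled out.
left outside, chr7:58067833-58067892: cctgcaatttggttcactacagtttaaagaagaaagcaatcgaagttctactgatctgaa
left inside, chr7:58075000-58075059: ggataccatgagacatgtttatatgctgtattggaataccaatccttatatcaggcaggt
right inside, chr7:133995108-133995167: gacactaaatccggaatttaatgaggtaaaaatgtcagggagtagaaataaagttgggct
right outside, chr7:134009108-134009167: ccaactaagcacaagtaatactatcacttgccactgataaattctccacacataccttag

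**Figure D3:**
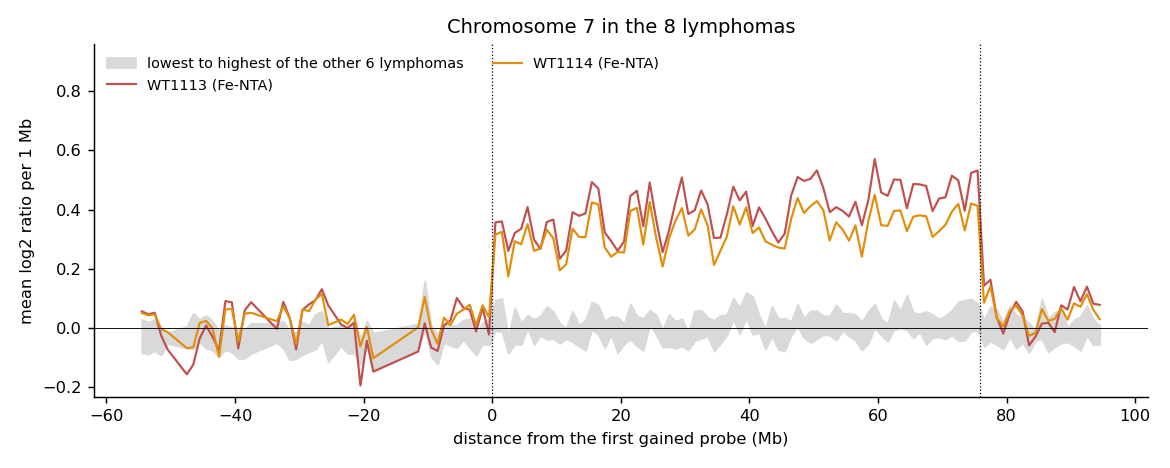
Mean log2 ratio per 1 Mb along chromosome 7, by distance from the first probe gained in WT1113; the band spans the lowest to the highest of the other 6 lymphomas and dotted lines mark the ends of the gain. WT1113 and WT1114 rise and fall at the same places and leave the band between them.

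Over the whole of chromosome 7 the means were 0.03, 0.03, 0.25, 0.21 and -0.01 in KO1077, KO1111, WT1113, WT1114 and WT1121, against -0.04, -0.02 and -0.01 in KO1414, WT1405 and WT1420. Treated lymphomas averaged 0.10 ± 0.12 (n = 5) and untreated ones -0.02 ± 0.02 (n = 3), 0.12 apart (exact permutation p = 0.143, adjusted p = 0.746 over 19 chromosomes). With WT1113 and WT1114 both left out the difference was 0.04, and within slide 3 it was 0.01. Igf1r, the receptor of insulin-like growth factor 1, lies in the gained interval and read 0.35 in WT1113 and 0.29 in WT1114, against -0.06 to 0.04 in the other 6.

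On proximal chromosome 11 the called gain with the highest mean was in the treated KO1111, and the longest called gain in the untreated WT1405. KO1111 stepped up at 2 places: 0.52 over chr11:20612335-24595414 (3.98 Mb, 276 probes) and 0.49 over chr11:27956982-38580041, with 0.22 before the first step and 0.21 between them, and 0.03 after 38608271. KO1414 was raised in 1 block, chr11:15233901-47179016, at 0.30. WT1405 was raised over the whole chromosome at 0.27, and KO1077 over the whole at 0.11. Across the 276 probes of the short gain the mean was 0.13, 0.52, 0.09, 0.11 and 0.03 in KO1077, KO1111, WT1113, WT1114 and WT1121, and 0.31, 0.27 and 0.00 in KO1414, WT1405 and WT1420. Treated and untreated values were interleaved. The interval holds 35 named genes of the array, among them Rel, an NF-kB subunit that drives B cell proliferation, Bcl11a, a zinc finger repressor of lymphoid progenitors, and Xpo1, the main exporter of proteins from the nucleus. Bcl11a read 0.69 in KO1111, 0.27 in KO1414 and 0.41 in WT1405, and -0.19 ± 0.09 (SE) was the fitted difference of Rel between treated and untreated lymphomas, with a limma adjusted p of 0.393. For chromosome 11 as a whole the difference was -0.04 (exact permutation p = 0.661), and without WT1405 it was 0.04.

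**Figure D4:**
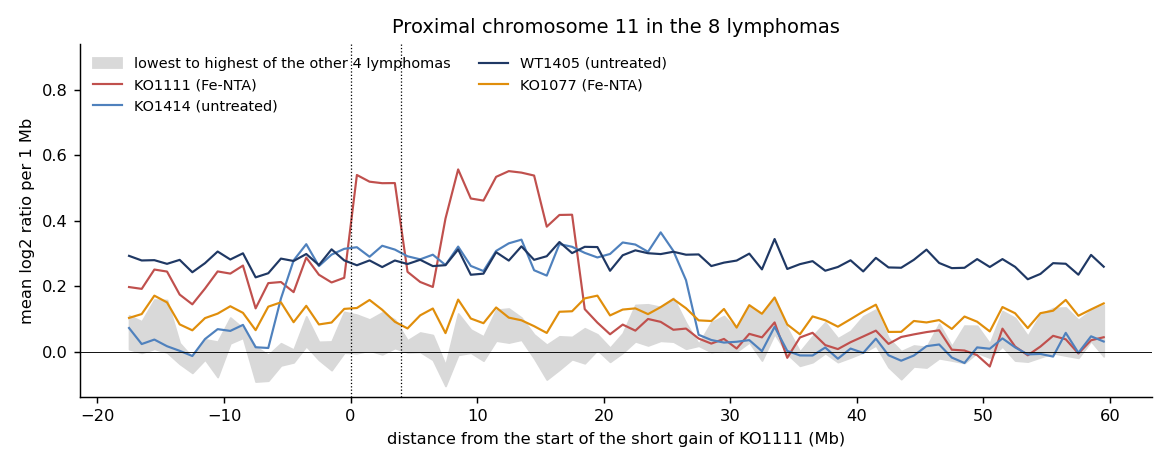
Mean log2 ratio per 1 Mb of proximal chromosome 11, by distance from the start of the short gain of KO1111, whose ends are dotted; the band spans the lowest to the highest of the 4 lymphomas not drawn as lines. KO1111 shows 2 raised blocks near 0.5, KO1414 one block near 0.3, and WT1405 and KO1077 a level that continues to the right.

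Most changes lay well below the level of a copy gained in every cell, in both groups. An extra copy in all cells of a diploid tumour would read 0.58, and a lost copy -1. If each altered cell had 1 copy more or less, the called gain of chromosome 7 would equal 67.2% of cells in WT1113 and 53.9% in WT1114, and the gain of chr1:66162753-197188537 in WT1114, at 0.35, 55.7%. In WT1121 the gains of chr2:90585221-117183028 and of chr3:91249522-159598830, at 0.33 each, would equal 51.7% and 50.8%, while chromosome 3 as a whole, at 0.27, would equal 41.6%. In KO1077 the 3 stretches, whole chromosome 11, distal 14 and distal 4, would equal 15.98% to 23.6% of cells. In KO1111 the shallow gains of chromosomes 6, 14, 15, 16 and 17, at 0.17 to 0.22, would equal 24.5% to 33.4%, below the 87.3% of its short chromosome 11 gain. That gain lies between sequence at 0.22 and 0.21, and with more than 1 extra copy it would equal a smaller share of cells. The share of tumour cells in a sample and the share of those cells that carry a change cannot be told apart with these arrays.

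Among the untreated lymphomas WT1405 showed 2 levels. Chromosomes 1, 5, 11, 15, 17 and 18 read 0.23 to 0.29, equal to 34.6% to 44.5% of cells with 1 extra copy, and chromosome 6 read 0.52, equal to 86.1% with 1 extra copy or to 43.0% with 2. KO1414 held 6 stretches, of which 4 were losses, on distal 1, on part of 5 and over whole 8 and 19, at -0.13 to -0.20. WT1420 held 1, a shallow loss of -0.13 on part of chromosome 8. In all, treated lymphomas held 26 stretches over 10 Mb, 18 gained and 8 lost, and untreated ones 14, with 9 gained and 5 lost. Stretches of 12 of the 26 came from WT1113. The spread of levels within a tumour was large on either side: gains ran from 0.10 to 0.41 in WT1113 and from 0.23 to 0.52 in WT1405.

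**Figure D5:**
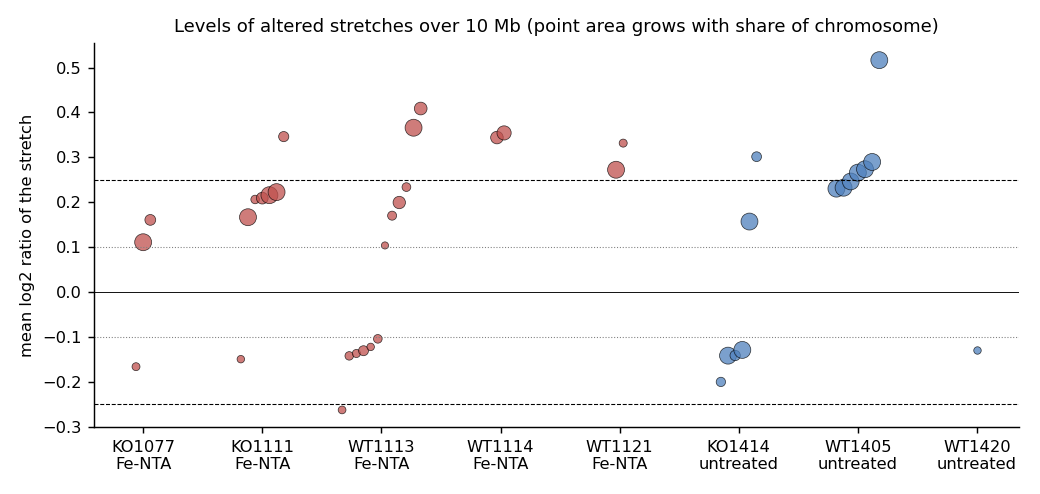
Mean log2 ratio of every stretch over 10 Mb at least 0.10 from 0, by lymphoma, with area growing with the share of the chromosome covered; dashed lines mark the call level of 0.25 and dotted lines 0.10. Losses in both groups sit between -0.10 and -0.20 apart from distal chromosome 4 of WT1113 at -0.26, and WT1420 has a single point.

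Short losses at antigen receptor loci, which lymphocytes cut as they rearrange their receptor genes, occurred in both groups. At Igh, the immunoglobulin heavy chain locus (chr12:114413746-117285162), 5 of 5 treated and 2 of 3 untreated lymphomas had a called loss of at most 10 Mb. At Igk, the kappa light chain locus (chr6:67444505-70710392), 4 of 5 and 1 of 3 had one. At Tcra/Tcrd, which encodes the T cell receptor alpha and delta chains, it was 3 of 5 and 2 of 3, at Tcrb, the beta chain locus, 2 of 5 and 2 of 3, and at Igl and Tcrg 0 of 5 and 0 of 3. These losses were called on the log2 ratio itself, not relative to the chromosome, so a locus in gained sequence is called less readily. Igk and Tcrb read 0.43 and 0.47 in WT1405, where chromosome 6 is gained. Relative to chromosome 14, Tcra/Tcrd read -0.22 in KO1111, inside a shallow gain and uncalled, and -0.22 in WT1114, where it was called. Relative to chromosome 6, Igk read -0.36, -0.09, -0.34, -0.26 and -0.29 in KO1077, KO1111, WT1113, WT1114 and WT1121, and -0.24, -0.09 and -0.17 in KO1414, WT1405 and WT1420. All treated tumours but KO1111 lay below the untreated ones. The means, -0.27 (n = 5) and -0.16 (n = 3), were -0.11 apart (exact permutation p = 0.196, adjusted p = 0.589 over 6 loci). Without KO1111 the difference was -0.15, at an exact permutation p of 0.0286 (0.0857 after adjustment), the lowest p that the remaining tumours can give. Without WT1405 the difference was -0.07, at an exact permutation p of 0.524. The other 5 loci had exact permutation p-values of 0.161 to 0.911. WT1405 read -0.09 to -0.02 at all 6 loci, with no called loss at any of them.

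Tested gene by gene, 2 of 20281 autosomal genes differed with treatment (0.00986% of those tested; limma, adjusted p under 0.05, with genotype in the model), and both rest on 1 probe. Hoxc5, a homeobox gene of body patterning, read -0.07, -0.14, 0.01, -0.11 and 0.22 in KO1077, KO1111, WT1113, WT1114 and WT1121, and 0.93, 0.98 and 0.86 in KO1414, WT1405 and WT1420. Scrt1, a neuronal zinc finger repressor, read -0.35, -0.40, -0.07, -0.33 and -0.35, and 0.38, 0.53 and 0.62. The groups did not overlap at either probe. The differences were -0.93 ± 0.08 (SE) and -0.80 ± 0.07, each with a limma adjusted p of 0.0227. The neighbouring probes at -9.80 kb and 11.3 kb from that of Hoxc5 differed by 0.15 and -0.03, and those at -12.3 kb and 11.98 kb from that of Scrt1 by 0.12 and -0.04. Neither difference is thus shared by the next probes, and with segment means in place of probe values 0 genes passed and both differences were 0.07. The 2 probes are shown as the array holds them, because each call rests on 1 of them.
Hoxc5, chr15:102845137-102845196: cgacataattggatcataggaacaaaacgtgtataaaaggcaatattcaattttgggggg
Scrt1, chr15:76348429-76348487: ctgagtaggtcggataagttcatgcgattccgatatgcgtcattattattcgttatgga

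The count of called genes depended on which tumours and terms entered the fit. Without WT1121, the treated tumour of slide 3, treatment and slide cannot be told apart, and limma then called 547 genes, 487 higher and 60 lower. With slide as a random block it called 2, again Hoxc5 and Scrt1 (limma adjusted p = 0.0374 each), and with slide as a fixed term 1, a transcript on chromosome 14. The differences of Hoxc5 and Scrt1 were -0.72 and -0.92 with the fixed term, at a limma adjusted p of 0.2, and -0.70 and -0.93 within slide 3. The treated arm of slide 3 is WT1121 alone, which leaves too few tumours for a count of calls there to be read. Genes whose 5 treated values all exceeded the 3 untreated ones numbered 1278 (6.30%), of which 484 rest on 1 probe. Genes with all treated values below numbered 629 (3.10%), of which 407 rest on 1 probe. For a gene, 1 of the 56 assignments of treatment places all treated values above, and 1 places all below. Genes of a chromosome share its level, so they are not separate counts. The part of the higher chromosome level on slide 2 in these counts was not tested. Whether the effect of treatment differed between knockout and wild-type lymphomas was tested as an interaction, which called 0 genes (0%; limma, adjusted p under 0.05) with 762 at an unadjusted p under 0.05. Its untreated knockout arm is 1 tumour, KO1414, so this count says little.

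Known lymphoid cancer genes fell in gained DNA on both sides of the comparison and none passed the test between them. The 4 gene lists held 121 symbols, of which 97 had a probe of that name. Of all genes outside the receptor loci, the knockout's flanking stretch and the chromosome 14 gain, 34.9% lay in a called segment of at least 1 lymphoma. Of 33 measured lymphoid oncogenes 18 did (54.5%), 9 gained in a treated and 12 in an untreated lymphoma, while over all genes 3301 were gained in a treated and 4413 in an untreated one. Braf, Ccnd2 and Ezh2 lie on chromosome 6 and were gained in WT1405, with Stat3, Stat5b, Ccnd3 and Pim1 on its other gained chromosomes. Nras, Bcl10 and Lmo2 lay in the gains of WT1121, where Nras, a GTPase of growth signalling, read 0.44 on its 1 probe. Bcl2, the inhibitor of cell death, lay in the chromosome 1 gain of WT1114 and read 0.43. Il7r, the receptor of a lymphocyte growth factor, was gained in WT1113 and WT1405, at 0.42 and 0.32. The oncogene that lay in a called loss was Pik3cd, a lymphocyte PI3 kinase on distal chromosome 4, at -0.31 in WT1113. The median treated minus untreated difference of the list was 0.00, against 0.02 for all genes tested, and 0 of 33 passed limma's test, with 1 at an unadjusted p under 0.05. Over all genes that unadjusted count was 2615 of 20281, and the counts of the lists stand beside it.

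Where lymphoid tumour suppressors lay in called segments, these were gains. Of 27 measured, 7 lay in called gains (25.9%, against 34.9% of all genes in called segments): Ikzf1, Trp53, Nf1 and Etv6 in WT1405, Ebf1 in KO1414 and WT1405, and Lef1 and Tet2 in WT1121. None lay in a called loss in any lymphoma, but neither did most genes: 188 of all 20281 lay in one, so this absence says little. Trp53, the damage checkpoint gene, read 0.31, 0.17, 0.20, 0.37 and 0.11 in KO1077, KO1111, WT1113, WT1114 and WT1121, and 0.17, 0.41 and 0.18 in KO1414, WT1405 and WT1420. The Trp53 value rests on 2 probes. In WT1420 chromosome 11 as a whole read 0.00, and in KO1414 it read 0.01 beyond 60 Mb, the part that holds Trp53. The list's median difference was 0.03, with 0 of 27 past limma's test and 4 at an unadjusted p under 0.05.

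Each gene of iron handling and oxidative stress that was gained was gained in 1 or 2 tumours. Of 21 measured, 6 lay in called segments (28.6%, against 34.9% of all genes), 5 gained in a treated and 2 in an untreated lymphoma: Cat, Gclm and Hfe2 in WT1121, Prdx6 in WT1114, and Slc11a2 in WT1113 and also in the untreated WT1405, where Sod2 was gained too. Cat encodes catalase, which breaks down hydrogen peroxide, and read 0.48 in WT1121. Slc11a2, the transporter that takes up ferrous iron, read 0.62 in WT1113 and 0.55 in WT1405. Hfe2, which encodes the iron regulator hemojuvelin, read 0.23 to 0.34 in the treated and -0.12 to 0.21 in the untreated lymphomas, a difference of 0.21 ± 0.08 (SE) with a limma adjusted p of 0.331. The Hfe2 value rests on 1 probe, and apart from WT1121 the treated lymphomas had chromosome 3 means of 0.00 to 0.05. The list's median difference was 0.05, with 0 of 21 past the test and 3 at an unadjusted p under 0.05.

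Of 16 measured genes of base excision repair, the pathway of Mutyh, 7 lay in called gains (43.8%, against 34.9% of all genes in called segments). Of these, 3 were gained in a treated and 6 in an untreated lymphoma, and all 6 were gained in WT1405. Over all genes, 3301 were gained in a treated and 4413 in an untreated one. Ogg1, which excises 8-oxoguanine, and Mbd4 lie on chromosome 6 and were gained in WT1405, as were Lig3 and Nthl1. Mpg on chromosome 11 was gained in KO1111, KO1414 and WT1405, Smug1 in WT1113 and WT1405, and Parp1 in WT1114. Ogg1 read 0.70 in WT1405, and 0.24 to 0.47 in the 5 treated lymphomas against 0.09 and 0.02 in KO1414 and WT1420, a difference of 0.09 ± 0.14 (SE) with a limma adjusted p of 0.81. The Ogg1 value rests on 1 probe, and chromosome 6 as a whole read 0.00 to 0.08 in the treated lymphomas. The list's median difference was 0.06, and 0 of 16 passed the test, with 1 at an unadjusted p under 0.05.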

How the data were processed

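The members and gene lists were chosen with earlier results of these data known. The authors deposited scanner output whose intensity columns are, per the file headers, the red and green signals after background subtraction and linear dye normalization by Agilent Feature Extraction 10.7.1.1, with probes placed on mm9. The series-wide table deposited by the authors holds the log2 of red over green of the same arrays: it correlated with the scanner values at 0.9999 or more, with column medians of -0.02 to 0.00, and served as an alternative.

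Outlier spots were left out, spots of a probe averaged, and each array centred on the mode of its autosomal probes (kernel bandwidth 0.05). Penalised least squares (penalty 10 times the log of the probe count times the noise variance) gave segments, and called neighbours of a sign were joined. The antigen receptor loci, the stretch around Mutyh and the chromosome 14 gain were masked (1790 probes). The segmentation and the limma fit were tested on simulated data. Groups were compared with exact two-sided permutation tests, with Benjamini-Hochberg adjustment over 5 measures, 19 chromosomes or 6 loci. Genes, as means of their probes, were fitted in limma 3.58.1 (R 4.3.3) with treatment and genotype. Genes were named if called with at least 2 probes (0 were) or if a list member lay in a called segment. Hoxc5 and Scrt1 have 1 probe and are named outside this rule, after their values were seen. Replicates are separate animals, per the labels. The number of arrays limits the precision.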

Additional observations from a re-analysis of the deposited data

Results flagged for a closer look

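Among the 5 treated lymphomas, 3 values stood far from the other 4. WT1113 had 0.574% of its autosomes lost outside the masked regions while the others had 0%. WT1121 had a chromosome 3 mean of 0.27, and KO1111 a chromosome 16 mean of 0.22. Such gaps were looked for in 30 sets of 5 values, and chance alone gives about 1 in 20 for normally distributed values. Where 4 of the 5 values are 0, as for percent lost, any other value is flagged, so that rate does not hold. The X chromosome entered no comparison. Its mean log2 ratio was 0.0794 in KO1077 and 0.16 in WT1113, both above the highest untreated value of 0.0664, in WT1405.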

How the results depend on the processing

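No alternative brought any of the 5 measures, a chromosome or a receptor locus past an adjusted p of 0.05. With so few tumours a single measure, chromosome or locus cannot pass after adjustment, so this says little. The difference in percent gained turned positive with median centring (1.26). That in large segments turned negative with penalty factor 20 (-0.0667), normexp (-0.467), the pair WT1113 and WT1114 averaged (-0.0417) and both left out (-0.667, an alternative chosen after seeing the data). Percent lost differed by 0 at a threshold of 0.4, without the pair and within slide 3, where focal segments also differed by 0. With penalty factor 20 focal segments differed by 0.2. Leaving out 1 lymphoma at a time gave -5.84 to 3.66 for percent gained (positive without WT1405), 0 to 0.143 for percent lost, -0.5 to 1.5 for large segments, 0.25 to 1 for focal segments and -9.28 to -0.697 for percent shallow. For chromosome 11 it gave -0.10 to 0.0356.

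Called genes numbered 2 in the fit reported. They numbered 5 with median centring, 1 with slide as a fixed term (another gene), 1 with the pair averaged and 0 with segment means, with genes of at least 2 probes, over all 12 tumours, in wild types, without the pair and within slide 3 (1 treated tumour, 1 residual degree of freedom). Unadjusted p-values under 0.05 numbered 308 to 2845 in these fits. Leaving out 1 lymphoma gave 0 to 547 genes, with 547 without WT1121, 1 without WT1113 and 0 without each of the others (1474 to 3190 at an unadjusted p under 0.05). The interaction gave 3 genes with segment means, 2 of them in the stretch around Mutyh, and 0 in each other fit that could be made (284 to 3266 at an unadjusted p under 0.05). Without KO1414, in wild types and within slide 3 it could not be fitted. With segment means Hoxc5 and Scrt1 differed by 0.0661 and 0.0658, and Igf1r differed by -0.0600 with slide as a term and by -0.00971 within slide 3. No paired analysis was possible because the replicate numbers of the lymphomas come from accession order and pair no samples.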

Other observations

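The Y chromosome, read by 122 probes, had a mean log2 ratio of -0.01, -0.41, -0.03, 0.00 and -0.01 in the treated KO1077, KO1111, WT1113, WT1114 and WT1121, and of -0.54, -0.86 and -0.10 in the untreated KO1414, WT1405 and WT1420. If altered cells had lost their only copy, these would equal 24.8% of cells in KO1111, 31.3% in KO1414, 44.9% in WT1405 and 6.75% in WT1420. The Y chromosome was looked at after its values were seen, and no test was made. In WT1405 this share lay beside the 34.6% to 44.5% of cells that its gained chromosomes other than chromosome 6 would equal with 1 extra copy.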
